A study of Mus musculus with 26 samples.

Results

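Genes of DNA repair and damage signalling were followed in the lungs of mice given multiwalled carbon nanotubes into the airways, against control mice. The set was a list of 53 genes chosen by name, covering the kinases that signal damage and the main repair routes, and its members were found on the arrays through the accession of each probe. Of the 53, 52 had a matched probe, and 48 passed the filter on dim probes and were tested among 22950 features. A probe was kept if its lung signal passed the scanner's background test in 4 or more animals of any group, so a gene could enter through an exposed group alone, and 3 of the 48 were well above background in fewer than 4 control animals. In all 25 animals, 43 of the 48 were well above background.

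Cells mend different DNA lesions by different routes. Single damaged bases are cut out and replaced by base excision repair, bulky adducts by nucleotide excision repair, and copying errors by mismatch repair. Double-strand breaks are rejoined directly by end joining or copied from the sister chromatid by homologous recombination, crosslinks are unhooked by the Fanconi anaemia pathway, and a few alkylated bases are reversed in place. Much of this machinery acts in S phase, and several of its enzymes also serve DNA replication. In the lung, persistent fibres can bring inflammation and oxidants to the epithelium, which is why repair genes are of interest in studies of their genotoxicity.

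The mice were of the transgenic MutaTMMouse line (MutaMouse), which carries a bacterial reporter gene for counting mutations, and were about 12 weeks old. Each animal in an exposed group received nanotubes suspended in mouse serum, instilled into the trachea once a week for 4 weeks, and RNA from random lung sections was collected after 56 further days. The 5 groups of 5 animals were NM 401 at 128 µg per mouse (NM 401 high), NM 401 at 42.7 µg per mouse (NM 401 low), Mitsui XNRi-7 at 128 µg per mouse (Mitsui XNRi-7 high), Mitsui XNRi-7 at 42.7 µg per mouse (Mitsui XNRi-7 low), and control. The sample labels give the controls olive oil by gavage, whereas the design text speaks of a vehicle control, so the exposed animals may differ from the controls in route and vehicle as well as in nanotubes. The labels call the animals female and the design text calls them male. Each value below is a log2 ratio of lung RNA (Cy5) over a common mouse reference RNA (Cy3) on a 2-colour array. A log2 ratio is set only against the same gene in another group, because the reference level differs between genes.

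The share of probes above background in the lung channel ranged from 45.7% to 62.1% over the arrays. The lung markers Sftpc, Ager and Scgb1a1 were well above background in 25 of 25 animals and the endothelial marker Cdh5 in 24. Xist, which female cells use to silence an X chromosome, was well above background in 24 animals but not in NM 401 high animal 2, so that array stood apart from its group. Among Y-linked genes, Ddx3y and Kdm5d were above background in 0 animals, some Uty probe in 2 and Eif2s3y in 22. Without NM 401 high animal 2 the number of listed genes called in NM 401 high was 15, against 13 with it, and all 13 calls were kept. Of all features, 33.8% were called without that animal and 34.8% with it. The 5 NM 401 high arrays all lay in the first pair of array columns of their slides, against 1 of 5 control arrays, and none lay on 1 of the 4 slides.

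Between 5 and 13 of the 48 genes differed from control at an adjusted p under 0.05 in any exposure, with called changes between 0.656-fold and 1.59-fold. Changes are log2 differences between group means, given with their standard error (± SE, n = 5 animals a group) and a p-value from limma adjusted by Benjamini-Hochberg over all features. In NM 401 high, 13 genes were called (27.1%), against 34.8% of all features. Of these, 9 were higher and 4 lower, where 18.4% of all features were higher and 16.4% lower. In NM 401 low, 5 were called (10.4%), 3 higher and 2 lower, against 16.9% of all features, 8.95% higher and 8% lower. Mitsui XNRi-7 high gave 8 calls (16.7%), 5 higher and 3 lower, against 23.7% of all features, 12.7% higher and 11% lower. Mitsui XNRi-7 low gave 11 calls (22.9%), 8 higher and 3 lower, against 21% of all features, 10.6% higher and 10.4% lower. Against all features the share called was lower in 3 exposures and about the same in Mitsui XNRi-7 low, so the counts do not set these genes apart from the array as a whole. The median log2 change over the 48 genes was 0.02, 0.02, 0.04 and 0.00 in NM 401 high, NM 401 low, Mitsui XNRi-7 high and Mitsui XNRi-7 low, beside 0.00 for all features in each.

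**Figure D1:**
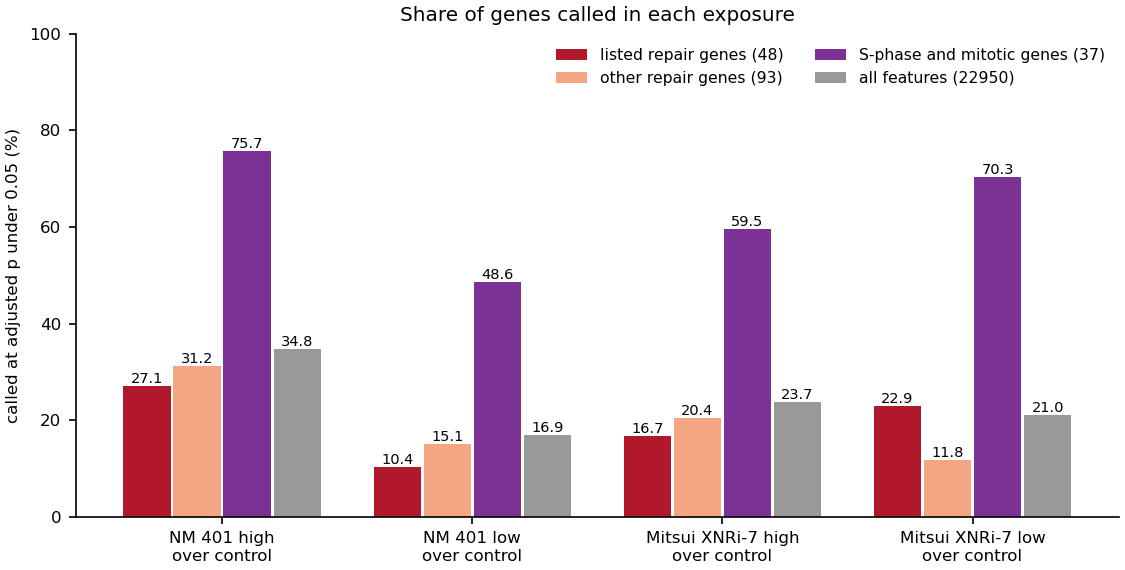
Share of genes called at an adjusted p under 0.05, in percent, for the 48 listed repair genes, 93 other repair genes, 37 S-phase and mitotic genes and all 22950 features in each exposure over control. The listed repair genes lie between 10.4% and 27.1%, near the bar for all features, and the S-phase and mitotic genes lie above it in all 4 exposures.

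Across the exposures 17 members were called at least once and 31 in none, with changes between -0.22 and 0.36 in those 31. Fancb, Rad50, Apex1, Xrcc5 and Fen1 were called in all 4 exposures, Xpc in 3, Mgmt, Mre11a and Lig1 in 2, and Parp1, Xrcc3, Xrcc6, Neil1, Ddb1, Ddb2, Rad54l and Fanca in 1. For Rad50 this holds on the probe used, and a second kept probe was called in no exposure. The 4 exposures share their control animals, so agreement between them is not independent. Of the 37 called changes, 30 came without overlap between exposed and control animals, and in 36 the 5 exposed animals were all above or all below the mean of the controls. A call at this threshold with 5 animals a group itself selects for such separation. Its share among all called features was not counted, so these counts describe the calls and add no support. Within the slides that held both groups, the sign was the same in every slide for 36 of the 37. These signs come from the arrays that gave the calls, and their share among all called features was not counted. They add no support either. All 37 calls were kept with slide as a block. That block called 18 members in NM 401 high, 7 in NM 401 low, 11 in Mitsui XNRi-7 high and 11 in Mitsui XNRi-7 low. Of all features it called 41.0%, 22.6%, 29.8% and 26.2% in that order. Slide explained part of the variance in 15 of 48 members and 6656 of 22950 features (limma F test, adjusted p under 0.05). The main model has no slide term. With array column as a block, added after the data were seen, 8 of the 37 missed the threshold in the same direction: Xrcc3 (0.25), Xrcc6 (0.28) and Ddb1 (-0.13) in NM 401 high, Rad50 (-0.23) and Fen1 (0.31) in NM 401 low, Lig1 (0.19) in Mitsui XNRi-7 high, and Mre11a (0.27) and Rad54l (0.26) in Mitsui XNRi-7 low. Centring each array on its median in place of the loess correction left 0 of the 37 calls, with the same direction in 34. Under that setting the share of all features called also fell, to 4.64% in NM 401 high, 0.270% in NM 401 low, 0.527% in Mitsui XNRi-7 high and 0.322% in Mitsui XNRi-7 low. In whole-lung RNA, fewer cells of a type and less RNA per cell cannot be told apart.

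**Figure D2:**
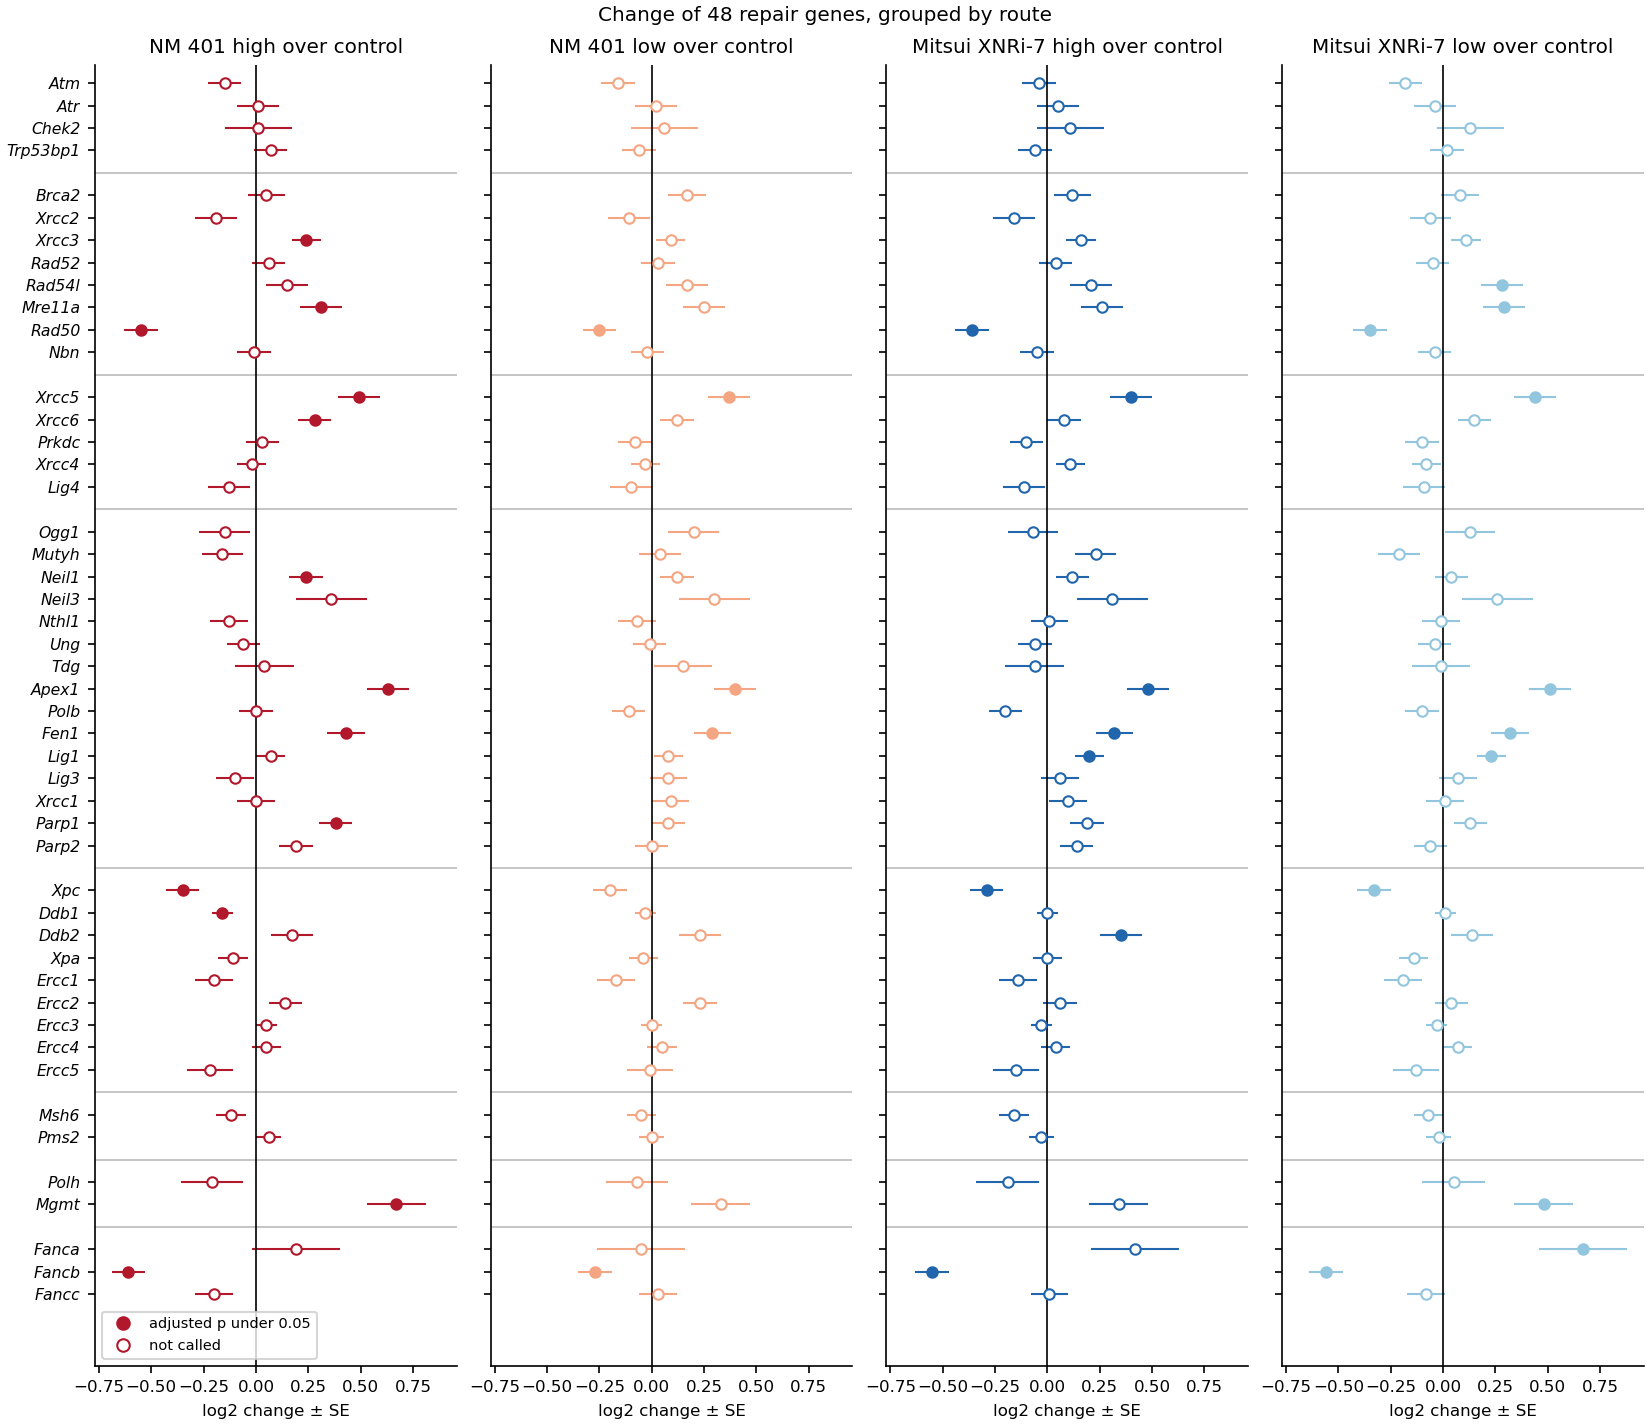
Log2 change over control with its standard error for each of the 48 genes in the 4 exposures, ordered by route from damage signalling at the top to the Fanconi anaemia pathway at the bottom, with filled points at an adjusted p under 0.05. Fancb and, on the probe used, Rad50 lie left of 0 and Apex1, Xrcc5 and Fen1 right of 0 in all 4 panels, while damage signalling and mismatch repair have no filled point.

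In base excision and single-strand break repair, 4 of 15 members were called in NM 401 high (26.7%), 2 in NM 401 low (13.3%), 3 in Mitsui XNRi-7 high (20%) and 3 in Mitsui XNRi-7 low (20%), all higher. These shares lay below or near those called in either direction among all features, which were 34.8%, 16.9%, 23.7% and 21% in the same order. They lay above those called higher among all features, which were 18.4%, 8.95%, 12.7% and 10.6%. Apex1, the endonuclease that cuts the backbone at a site that has lost its base, was higher in all 4 exposures. Its log2 ratios were -1.18, -1.34, -1.34, -1.52 and -1.34 in NM 401 high animals, -1.71, -1.47, -1.47, -1.65 and -1.56 in NM 401 low animals, -1.44, -1.61, -1.43, -1.67 and -1.32 in Mitsui XNRi-7 high animals, -1.49, -1.21, -1.57, -1.68 and -1.36 in Mitsui XNRi-7 low animals and -2.02, -2.23, -1.71, -2.00 and -1.89 in control animals. All exposed animals lay above all controls, and the lowest NM 401 low animal and the highest control were both -1.71 after rounding. The change was 0.63 ± 0.10 (adjusted p = 1.66e-05) in NM 401 high, 0.40 ± 0.10 (adjusted p = 0.00547) in NM 401 low, 0.48 ± 0.10 (adjusted p = 0.000779) in Mitsui XNRi-7 high and 0.51 ± 0.10 (adjusted p = 0.000515) in Mitsui XNRi-7 low. In NM 401 high this was 1.54-fold, and the log2 change within slides lay between 0.54 and 0.62.

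Fen1, the flap endonuclease that trims displaced strands in long-patch repair and Okazaki fragments in replication, rose in all 4 exposures too. Fen1 stood at -1.94, -1.90, -2.07, -2.08 and -2.03 in NM 401 high animals, -2.00, -2.09, -1.99, -2.29 and -2.33 in NM 401 low animals, -1.95, -2.25, -2.33, -2.05 and -1.99 in Mitsui XNRi-7 high animals, -2.14, -2.28, -1.96, -1.90 and -2.30 in Mitsui XNRi-7 low animals and -2.38, -2.34, -2.60, -2.48 and -2.38 in control animals. All 20 exposed animals lay above all 5 controls. Changes were 0.43 ± 0.09 (adjusted p = 0.000659) in NM 401 high, 0.29 ± 0.09 (adjusted p = 0.0282) in NM 401 low, 0.32 ± 0.09 (adjusted p = 0.0125) in Mitsui XNRi-7 high and 0.32 ± 0.09 (adjusted p = 0.0148) in Mitsui XNRi-7 low. The NM 401 low call was lost without NM 401 low animal 1, 2 or 3 or control animal 3 or 4 (0.25 to 0.28) and with the scanner software's ratios (0.28), and the Mitsui XNRi-7 low call without animal 4 of that group (0.26).

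Parp1, the poly(ADP-ribose) polymerase that binds strand breaks, was called higher in NM 401 high. Its ratios were -1.18, -1.31, -1.22, -1.42 and -1.15 in NM 401 high animals, -1.64, -1.70, -1.46, -1.67 and -1.35 in NM 401 low animals, -1.49, -1.52, -1.42, -1.47 and -1.32 in Mitsui XNRi-7 high animals, -1.55, -1.36, -1.57, -1.61 and -1.45 in Mitsui XNRi-7 low animals and -1.60, -1.54, -1.64, -1.94 and -1.46 in control animals. Every NM 401 high animal lay above every control, and the other exposed groups overlapped with them. The change in NM 401 high was 0.38 ± 0.08 (adjusted p = 0.000886), and in the other exposures it lay between 0.08 and 0.19 without a call.

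Among the remaining members of the route, Lig1, the ligase that seals long patches and Okazaki fragments, was called higher in Mitsui XNRi-7 high (0.20 ± 0.07, adjusted p = 0.0378) and Mitsui XNRi-7 low (0.23 ± 0.07, adjusted p = 0.0167), directions that turned to -0.02 in both under median centring. The Mitsui XNRi-7 high call for Lig1 was lost without animal 3, 4 or 5 of that group or control animal 2 or 3 (0.16 to 0.19), and the Mitsui XNRi-7 low call without animal 3 (0.19). Neil1, a glycosylase for oxidised pyrimidines, was called in NM 401 high (0.24 ± 0.08, adjusted p = 0.0213), and the call was lost without NM 401 high animal 3 or 5 or control animal 5 (0.21 to 0.22), with the scanner software's own ratios (0.35) and in the authors' deposited values (0.19). With the scanner's ratios both Lig1 calls were lost as well (0.15 in Mitsui XNRi-7 high and 0.22 in Mitsui XNRi-7 low), and with no filter on dim probes the Mitsui XNRi-7 high call (0.20). The other 10 of the 15 members were not called. These were the glycosylases Ogg1 (-0.15 to 0.20 over the 4 exposures), Mutyh (-0.21 to 0.23), Nthl1 (-0.13 to 0.01), Ung (-0.06 to -0.01), Tdg (-0.06 to 0.15) and Neil3, the polymerase Polb (-0.20 to 0.00), the ligase Lig3 (-0.10 to 0.08), the scaffold Xrcc1 (0.00 to 0.10) and Parp2 (-0.06 to 0.19). Ogg1, which removes oxidised guanine, was well above background in 3 of 5 NM 401 high animals and 3 of 5 controls.

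Neil3, a glycosylase of proliferating cells, was not well above background in any control animal but was so in 5 of 5 NM 401 high animals, 3 of 5 NM 401 low animals, 3 of 5 Mitsui XNRi-7 high animals and 2 of 5 Mitsui XNRi-7 low animals. Neil3 thus passed the filter on dim probes through NM 401 high alone, the group where it was brightest, so its level there is a description. By group means alone, its Cy5 signal in NM 401 high was 1.24-fold a bound set for controls. This describes values that the filter selected. The ratio has no interval and takes no account of the spread between animals, and the change was not called. It sets the mean of the 5 animals against the higher of each control's signal and the lowest signal above background on that array. Unlike the other values, these signals were also normalized between arrays on their mean intensities. With 1 dye orientation the ratio is open to dye bias. No such ratio is given for the other exposures, where only some animals were above background. Neil3 was not called in any exposure (adjusted p = 0.105 in NM 401 high, 0.252 in NM 401 low, 0.194 in Mitsui XNRi-7 high and 0.299 in Mitsui XNRi-7 low).

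**Figure D3:**
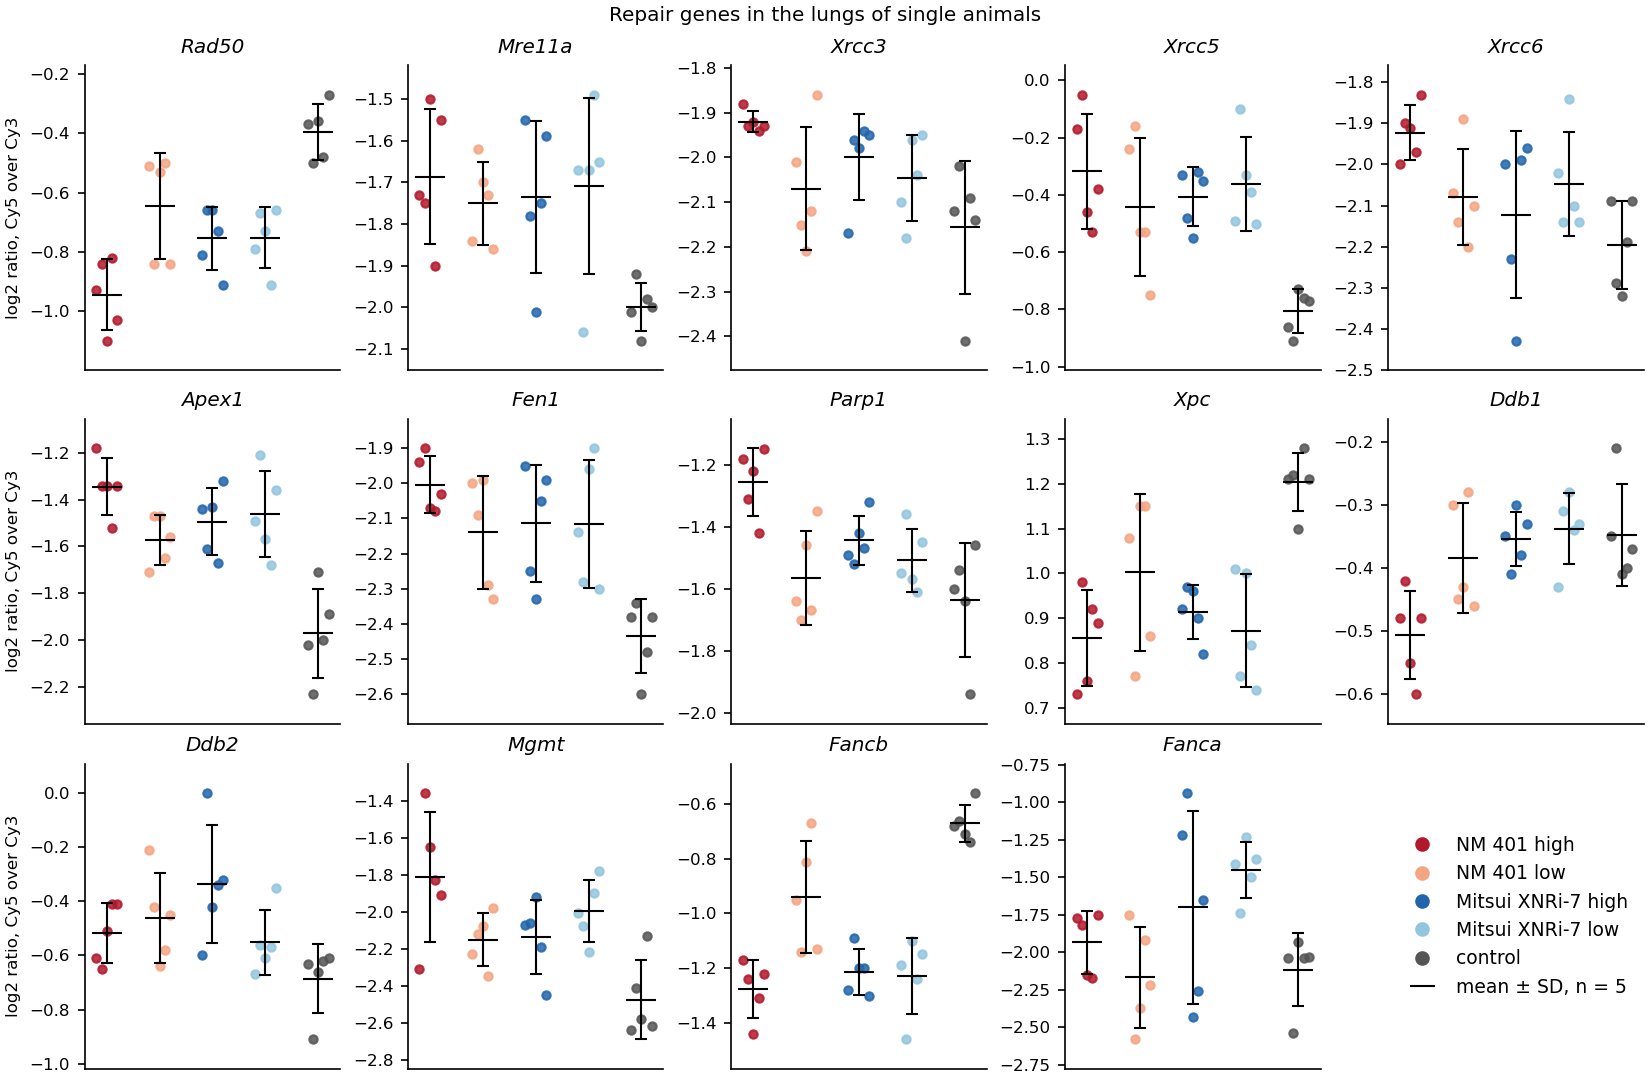
Log2 ratio of lung RNA over reference RNA for 14 genes, with 1 point per animal and a black bar at the mean and SD of the 5 animals of each group. All 20 exposed animals lie above the 5 controls for Fen1, and below them for Rad50 on the probe used, while the ratios of Fancb in NM 401 low reach up to the control range.

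In end joining, both subunits of Ku were called higher in NM 401 high. Ku is the ring that threads onto broken DNA ends and recruits the other end-joining factors. Xrcc5, its larger subunit, gave -0.17, -0.05, -0.46, -0.53 and -0.38 in NM 401 high animals, -0.24, -0.16, -0.53, -0.53 and -0.75 in NM 401 low animals, -0.33, -0.48, -0.55, -0.32 and -0.35 in Mitsui XNRi-7 high animals, -0.49, -0.10, -0.33, -0.39 and -0.50 in Mitsui XNRi-7 low animals and -0.86, -0.91, -0.73, -0.76 and -0.77 in control animals. Only NM 401 low reached into the control range, through 1 animal at -0.75. The change was 0.49 ± 0.10 (adjusted p = 0.000691) in NM 401 high, 0.37 ± 0.10 (adjusted p = 0.0177) in NM 401 low, 0.40 ± 0.10 (adjusted p = 0.00656) in Mitsui XNRi-7 high and 0.44 ± 0.10 (adjusted p = 0.0035) in Mitsui XNRi-7 low. The NM 401 low call was lost without animal 1 (0.31) or animal 2 (0.29) of that group, and within slides it ranged from -0.03 to 0.71.

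Xrcc6, the smaller Ku subunit, stood at -2.00, -1.90, -1.91, -1.97 and -1.83 in NM 401 high animals, -2.07, -2.14, -1.89, -2.20 and -2.10 in NM 401 low animals, -2.00, -2.23, -2.43, -1.99 and -1.96 in Mitsui XNRi-7 high animals, -2.02, -2.14, -1.84, -2.10 and -2.14 in Mitsui XNRi-7 low animals and -2.09, -2.29, -2.32, -2.19 and -2.09 in control animals. Its NM 401 high animals lay above all controls, and the other groups overlapped with them. Xrcc6 was called in NM 401 high (0.28 ± 0.08, adjusted p = 0.0137) and had changes between 0.08 and 0.15 in the other exposures. Prkdc, the kinase that Ku activates (-0.10 to 0.03), Xrcc4 (-0.08 to 0.11) and Lig4 (-0.13 to -0.09), which seal the break, were not called. Of 5 other end-joining genes 4 were called higher in NM 401 high, and 0 lower, beside 18.4% of all features called higher and 34.8% called in either direction. They included Nhej1, a partner of Xrcc4 (0.40, adjusted p = 0.000344), Polm, a gap-filling polymerase (0.45, adjusted p = 0.00466), and Dclre1c, the nuclease Artemis (0.27, adjusted p = 0.00952). The counts for these 5 were 0 in NM 401 low, 1 in Mitsui XNRi-7 high and 0 in Mitsui XNRi-7 low, beside 16.9%, 23.7% and 21% of all features.

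The 250 bases before the start of 4 genes are shown from RefSeq (GRCm38.p6), because they set the Ku pair beside Apex1 and Fancb, which were called in all 4 exposures in opposite directions. Capitals mark matches on either strand to 3 motifs, with overlaps allowed. The E2F-type motif was searched as TTTCCCGC or TTTGGCGC. The next was the CCAAT box. The GC box was searched as GGGCGG. Each sequence reads 5′ to 3′ towards the start site and stands on the + strand.
Xrcc5, chr1:72307171-72307420: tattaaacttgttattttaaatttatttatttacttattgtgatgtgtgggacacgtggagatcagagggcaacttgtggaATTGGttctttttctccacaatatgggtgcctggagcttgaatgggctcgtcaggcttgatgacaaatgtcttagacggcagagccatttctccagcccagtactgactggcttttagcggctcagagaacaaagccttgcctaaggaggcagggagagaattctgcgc
Xrcc6, chr15:82016119-82016368: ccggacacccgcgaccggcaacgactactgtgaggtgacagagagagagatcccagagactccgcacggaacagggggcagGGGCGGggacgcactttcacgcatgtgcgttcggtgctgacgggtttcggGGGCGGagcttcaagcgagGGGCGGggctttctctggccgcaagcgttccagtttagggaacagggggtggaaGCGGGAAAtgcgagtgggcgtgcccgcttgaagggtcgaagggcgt
Apex1, chr14:50924699-50924948: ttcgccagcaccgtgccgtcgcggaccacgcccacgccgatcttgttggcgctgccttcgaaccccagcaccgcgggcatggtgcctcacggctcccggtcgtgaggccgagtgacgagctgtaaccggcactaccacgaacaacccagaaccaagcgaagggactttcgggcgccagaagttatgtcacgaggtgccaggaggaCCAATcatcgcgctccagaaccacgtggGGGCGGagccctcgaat
Fancb, chrX:164980342-164980591: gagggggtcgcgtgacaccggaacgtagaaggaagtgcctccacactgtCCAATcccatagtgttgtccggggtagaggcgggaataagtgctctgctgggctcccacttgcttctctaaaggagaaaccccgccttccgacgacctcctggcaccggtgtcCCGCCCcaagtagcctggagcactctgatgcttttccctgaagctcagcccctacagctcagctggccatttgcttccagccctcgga
Xrcc6 held 1 E2F-type match and 3 GC boxes, whereas Xrcc5 held 1 CCAAT box alone. Apex1 and Fancb, which moved in opposite directions, each held 1 CCAAT box and 1 GC box. Promoter windows were matched for 44 of the 53 members. An E2F-type match was found in 3 of these 44 (6.82%) and in 1.51% of 27025 genes. A CCAAT box was found in 50% against 37.5%, and a GC box in 65.9% against 35.4%. An ETS-type motif, CCGGAAGT, which the capitals do not mark, was found in 9.09% against 3.23%. Of 12 matched members called higher, 1 held an E2F-type match, and of 26 matched members called in no exposure, 2 did. Of 30 matched S-phase and mitotic genes, 13.3% held an E2F-type match, 76.7% a CCAAT box, 70% a GC box and 6.67% the ETS-type motif. A match is a stretch of letters and not a shown binding site.

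In homologous recombination, members of 1 complex went opposite ways on the probes used. Rad50, Mre11a and Nbn form the complex that holds and trims broken ends before they are copied. On the probe used, Rad50 gave -0.93, -0.84, -1.10, -0.82 and -1.03 in NM 401 high animals, -0.51, -0.84, -0.53, -0.50 and -0.84 in NM 401 low animals, -0.81, -0.66, -0.66, -0.73 and -0.91 in Mitsui XNRi-7 high animals, -0.79, -0.67, -0.73, -0.91 and -0.66 in Mitsui XNRi-7 low animals and -0.37, -0.50, -0.36, -0.48 and -0.27 in control animals. All 20 exposed animals lay below the lowest control, and the highest NM 401 low animal and that control were both -0.50 after rounding. The change was -0.55 ± 0.08 (adjusted p = 1.16e-05) in NM 401 high, -0.25 ± 0.08 (adjusted p = 0.0373) in NM 401 low, -0.36 ± 0.08 (adjusted p = 0.00215) in Mitsui XNRi-7 high and -0.35 ± 0.08 (adjusted p = 0.00282) in Mitsui XNRi-7 low. The fall rests on this probe alone. A second kept probe for the same transcript gave -0.10 ± 0.09 in NM 401 high, 0.03 ± 0.09 in NM 401 low, -0.02 ± 0.09 in Mitsui XNRi-7 high and -0.02 ± 0.09 in Mitsui XNRi-7 low, with a call in none. With both probes averaged, the change was -0.33 in NM 401 high and -0.19 in Mitsui XNRi-7 high, still called, and -0.11 in NM 401 low and -0.19 in Mitsui XNRi-7 low, not called. The NM 401 low call was also lost without NM 401 low animal 2 or 5 or control animal 1, 3 or 5 (-0.24 to -0.20), with no filter on dim probes (-0.25) and with the replicate number as a block (-0.25).

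**Figure D4:**
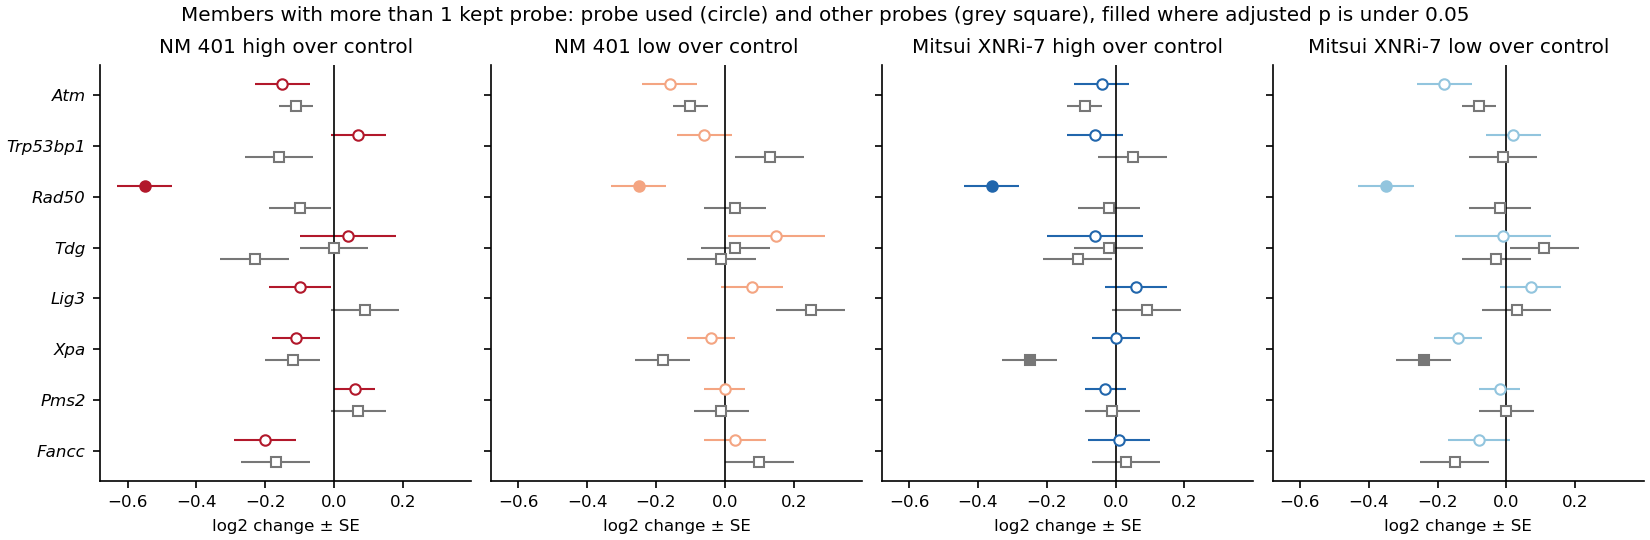
Log2 change over control with its standard error for the 8 members with more than 1 kept probe, with the probe used as a coloured circle, other probes as grey squares, and filled symbols at an adjusted p under 0.05. The Rad50 probes stand apart in all 4 panels, and the second Xpa probe is filled in both Mitsui XNRi-7 panels.

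Mre11a, the nuclease of the complex, moved the other way. Mre11a read -1.73, -1.75, -1.50, -1.90 and -1.55 in NM 401 high animals, -1.84, -1.62, -1.70, -1.73 and -1.86 in NM 401 low animals, -1.55, -1.78, -2.01, -1.75 and -1.59 in Mitsui XNRi-7 high animals, -1.67, -2.06, -1.67, -1.49 and -1.65 in Mitsui XNRi-7 low animals and -2.01, -1.92, -2.08, -1.98 and -2.00 in control animals. Both NM 401 groups lay above all controls, and each Mitsui XNRi-7 group had 1 animal within the control range. It was called in NM 401 high (0.31 ± 0.10, adjusted p = 0.0139) and Mitsui XNRi-7 low (0.29 ± 0.10, adjusted p = 0.0332). The changes of 0.25 in NM 401 low (adjusted p = 0.0775) and 0.26 in Mitsui XNRi-7 high (adjusted p = 0.0504) missed the threshold but were called with slide as a block. The Mitsui XNRi-7 low call was lost in 8 of 10 fits that left out 1 animal, all but those without Mitsui XNRi-7 low animal 2 or control animal 2 (0.24 to 0.29 in those 8), and with the replicate number as a block (0.29). Nbn, the third subunit, was not called (-0.05 to -0.01).

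Xrcc3, a recombination factor, was called higher in NM 401 high. The values of Xrcc3 were -1.88, -1.93, -1.92, -1.94 and -1.93 in NM 401 high animals, -2.01, -2.15, -2.21, -2.12 and -1.86 in NM 401 low animals, -2.17, -1.96, -1.98, -1.94 and -1.95 in Mitsui XNRi-7 high animals, -2.10, -2.18, -1.96, -2.04 and -1.95 in Mitsui XNRi-7 low animals and -2.12, -2.02, -2.41, -2.09 and -2.14 in control animals. The 5 NM 401 high animals lay close together and above all controls. The change there was 0.24 ± 0.07 (adjusted p = 0.0142), and without control animal 3 it was 0.17 and no longer called. The call was also lost with the scanner software's own ratios (0.39) and in the authors' deposited values (0.14). Rad54l, a motor protein that moves along DNA, was called in Mitsui XNRi-7 low (0.28 ± 0.10, adjusted p = 0.0487), and in 7 of 10 fits without 1 animal that call was lost (0.23 to 0.28, without Mitsui XNRi-7 low animal 2, 4 or 5 or control animal 1, 3, 4 or 5). Rad54l also lost its call with no background correction (0.26), with the scanner software's ratios (0.40), in the authors' deposited values (0.25), with no filter on dim probes (0.28) and with an intensity trend in the variance (0.28). Brca2, a mediator of recombination (0.05 to 0.17), Xrcc2 (-0.19 to -0.06) and Rad52 (-0.05 to 0.06) were not called. Brca1 was well above background in 0 animals, Palb2 was too dim in every group, and Rad51c was not analysed here. Among 21 other genes of the route, 5 were called higher and 1 lower in NM 401 high, with 2 and 0 in NM 401 low, 2 and 0 in Mitsui XNRi-7 high, and 0 and 1 in Mitsui XNRi-7 low. In either direction these were 28.6%, 9.52%, 9.52% and 4.76%, against 34.8%, 16.9%, 23.7% and 21% of all features. Bard1, the partner of Brca1 (0.34, adjusted p = 0.00694), Rad51b (0.33, adjusted p = 0.0133) and the nuclease Dna2 (0.33, adjusted p = 0.0144) led in NM 401 high.

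In nucleotide excision repair Xpc and Ddb1 fell and Ddb2 rose, each in at least 1 exposure. Xpc, which finds distorted helices, was lower in 3 exposures. The log2 ratios for Xpc were 0.73, 0.98, 0.76, 0.92 and 0.89 in NM 401 high animals, 1.08, 0.77, 1.15, 1.15 and 0.86 in NM 401 low animals, 0.92, 0.97, 0.96, 0.90 and 0.82 in Mitsui XNRi-7 high animals, 1.01, 0.77, 1.00, 0.84 and 0.74 in Mitsui XNRi-7 low animals and 1.21, 1.22, 1.10, 1.28 and 1.21 in control animals. The NM 401 high and both Mitsui XNRi-7 groups lay below all controls, while 2 NM 401 low animals lay in the control range. The change was -0.35 ± 0.08 (adjusted p = 0.000867) in NM 401 high, -0.29 ± 0.08 (adjusted p = 0.00647) in Mitsui XNRi-7 high and -0.33 ± 0.08 (adjusted p = 0.00287) in Mitsui XNRi-7 low, and -0.20 ± 0.08 (adjusted p = 0.0723) in NM 401 low, which was not called.

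Ddb1 and Ddb2 together form the sensor of ultraviolet lesions. Ddb1 gave -0.48, -0.42, -0.55, -0.60 and -0.48 in NM 401 high animals, -0.30, -0.45, -0.43, -0.28 and -0.46 in NM 401 low animals, -0.35, -0.41, -0.30, -0.38 and -0.33 in Mitsui XNRi-7 high animals, -0.43, -0.31, -0.28, -0.34 and -0.33 in Mitsui XNRi-7 low animals and -0.35, -0.21, -0.41, -0.40 and -0.37 in control animals. The NM 401 high animals were all below the controls, by a narrow margin. The change of -0.16 ± 0.05 (adjusted p = 0.0284) turned to 0.16 under median centring and was lost without NM 401 high animal 3 (-0.15) or 4 (-0.13) or control animal 2 (-0.12).

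Ddb2, the lesion-binding subunit, was called higher in Mitsui XNRi-7 high. Its animals read -0.61, -0.65, -0.51, -0.41 and -0.41 in NM 401 high, -0.21, -0.42, -0.64, -0.58 and -0.45 in NM 401 low, -0.60, 0.00, -0.42, -0.34 and -0.32 in Mitsui XNRi-7 high, -0.67, -0.56, -0.61, -0.57 and -0.35 in Mitsui XNRi-7 low and -0.63, -0.91, -0.66, -0.62 and -0.61 in control. The Mitsui XNRi-7 high animals spread widely, between -0.60 and 0.00, and the lowest lay just above the highest control. The change was 0.35 ± 0.10 (adjusted p = 0.00961), with changes between 0.14 and 0.23 in the other exposures.

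The damage-binding protein Xpa (-0.14 to 0.00) was not called on the probe used, but a second probe gave -0.25 ± 0.08 (adjusted p = 0.0225) in Mitsui XNRi-7 high and -0.24 ± 0.08 (adjusted p = 0.0312) in Mitsui XNRi-7 low. Ercc1 (-0.20 to -0.14) and Ercc4 (0.04 to 0.07), which form the 5′ nuclease, Ercc5 (-0.22 to -0.01), the 3′ nuclease, and the helicases Ercc2 (0.04 to 0.23) and Ercc3 (-0.03 to 0.05) were not called. Of 17 other genes of the route, 2 were called higher and 1 lower in NM 401 high, 0 and 1 in NM 401 low, 0 and 1 in Mitsui XNRi-7 high, and 1 and 0 in Mitsui XNRi-7 low. In either direction these were 17.6%, 5.88%, 5.88% and 5.88%, against 34.8%, 16.9%, 23.7% and 21% of all features. Rad23b, the partner of Xpc (0.34, adjusted p = 0.000248), and Gtf2h2 (0.44, adjusted p = 0.00338) were higher and Rpa1, which coats single strands (-0.31, adjusted p = 0.000767), was lower in NM 401 high.

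The Fanconi anaemia pathway held the lowest adjusted p of the set. Fancb, an X-linked subunit of the core complex that marks crosslinks, was lower in all 4 exposures. Fancb stood at -1.17, -1.24, -1.44, -1.31 and -1.22 in NM 401 high animals, -0.95, -1.14, -0.81, -0.67 and -1.13 in NM 401 low animals, -1.28, -1.09, -1.20, -1.20 and -1.30 in Mitsui XNRi-7 high animals, -1.19, -1.46, -1.10, -1.24 and -1.15 in Mitsui XNRi-7 low animals and -0.68, -0.66, -0.71, -0.74 and -0.56 in control animals. Apart from 1 NM 401 low animal at -0.67, every exposed animal lay below every control. The change was -0.61 ± 0.08 (adjusted p = 4.55e-06) in NM 401 high, -0.27 ± 0.08 (adjusted p = 0.0273) in NM 401 low, -0.55 ± 0.08 (adjusted p = 5.17e-05) in Mitsui XNRi-7 high and -0.56 ± 0.08 (adjusted p = 4.67e-05) in Mitsui XNRi-7 low. The NM 401 low call was lost without NM 401 low animal 2 (-0.22) or 5 (-0.22) or control animal 5 (-0.24). Fancb lies on the X chromosome, and NM 401 high animal 2, the array without Xist, had a Fancb ratio of -1.24, within the range of its group. The part of sex in the Fancb change was not tested.

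Fanca, another core subunit, was called higher in Mitsui XNRi-7 low. Fanca gave -1.77, -1.82, -2.15, -2.17 and -1.75 in NM 401 high animals, -1.75, -2.58, -2.37, -1.92 and -2.22 in NM 401 low animals, -1.22, -0.94, -2.43, -2.26 and -1.65 in Mitsui XNRi-7 high animals, -1.41, -1.74, -1.23, -1.50 and -1.38 in Mitsui XNRi-7 low animals and -2.04, -2.54, -1.93, -2.04 and -2.03 in control animals. The 5 Mitsui XNRi-7 low animals lay above all controls. Of the Mitsui XNRi-7 high animals, those at -2.43 and -2.26 lay within the control range and the others above it. The change in Mitsui XNRi-7 low was 0.67 ± 0.21 (adjusted p = 0.0284), and it was lost without animal 3 (0.61) or 5 (0.65) of that group or control animal 2 (0.56), or with the scanner software's ratios (0.75). Fancc (-0.20 to 0.03) was not called, and Fancd2, which the core complex modifies, was too dim to test. Of 8 other genes of the pathway, Fanci, the partner of Fancd2, was higher in all 4 exposures, at 0.39 (adjusted p = 0.00343) in NM 401 high, 0.49 (adjusted p = 0.00149) in NM 401 low, 0.34 (adjusted p = 0.0146) in Mitsui XNRi-7 high and 0.41 (adjusted p = 0.0045) in Mitsui XNRi-7 low. The counts for these 8 were 1 higher and 0 lower in NM 401 high, 1 and 0 in NM 401 low, 1 and 1 in Mitsui XNRi-7 high, and 1 and 0 in Mitsui XNRi-7 low. In either direction these were 12.5%, 12.5%, 25% and 12.5%, against 34.8%, 16.9%, 23.7% and 21% of all features.

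Mgmt, the suicide enzyme that takes alkyl groups off guanine, showed the widest change of the set in NM 401 high. Its ratios stood at -2.31, -1.36, -1.65, -1.83 and -1.91 in NM 401 high animals, -2.23, -2.12, -2.08, -2.35 and -1.98 in NM 401 low animals, -2.07, -2.06, -1.92, -2.19 and -2.45 in Mitsui XNRi-7 high animals, -2.01, -2.08, -2.22, -1.90 and -1.78 in Mitsui XNRi-7 low animals and -2.64, -2.41, -2.58, -2.13 and -2.62 in control animals. NM 401 high animal 1, at -2.31, lay among the controls, and control animal 4, at -2.13, lay among the exposed animals. The change was 0.67 ± 0.14 (adjusted p = 0.000449) in NM 401 high and 0.48 ± 0.14 (adjusted p = 0.0136) in Mitsui XNRi-7 low, and without NM 401 high animal 2 it was 0.55 in NM 401 high. In NM 401 low (0.33 ± 0.14, adjusted p = 0.106) and Mitsui XNRi-7 high (0.34 ± 0.14, adjusted p = 0.0732) it was not called. Polh, a polymerase that bypasses lesions (-0.21 to 0.05), was not called. Among 14 other genes of bypass and direct reversal, 5 were called higher and 2 lower in NM 401 high, 3 and 2 in NM 401 low, 3 and 2 in Mitsui XNRi-7 high, and 2 and 1 in Mitsui XNRi-7 low. In either direction these were 50%, 35.7%, 35.7% and 21.4%, against 34.8%, 16.9%, 23.7% and 21% of all features. Alkbh2, which also reverses alkylated bases, was higher in all 4, at 0.30 (adjusted p = 0.000985) in NM 401 high, 0.26 (adjusted p = 0.00871) in NM 401 low, 0.31 (adjusted p = 0.00144) in Mitsui XNRi-7 high and 0.27 (adjusted p = 0.0055) in Mitsui XNRi-7 low. Ube2a, which tags the replication clamp at lesions (0.37, adjusted p = 0.000781), and Mad2l2 (0.20, adjusted p = 0.0116) were higher in NM 401 high.

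The damage kinases and their adaptor did not pass the test in any exposure. Atm, which answers double-strand breaks, had changes between -0.18 and -0.04, Atr, which answers stalled forks, between -0.04 and 0.05, Chek2 between 0.01 and 0.13, and Trp53bp1 between -0.06 and 0.07. Chek1 was too dim to test, with 3 of 5 NM 401 high animals and 3 of 5 controls well above background. Of 15 other signalling genes, 0 were called higher and 3 lower in NM 401 high, 1 and 1 in NM 401 low, 1 and 4 in Mitsui XNRi-7 high, and 0 and 3 in Mitsui XNRi-7 low. In either direction these were 20%, 13.3%, 33.3% and 20%, against 34.8%, 16.9%, 23.7% and 21% of all features. Rad1 (-0.20, adjusted p = 0.00358) and Hus1 (-0.31, adjusted p = 0.00514), which form part of a checkpoint clamp, and Rnf168 (-0.23, adjusted p = 0.00542), a ubiquitin ligase at breaks, were lower in NM 401 high. The transcript of a kinase does not report its activity, which damage signalling changes by phosphorylation.

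In mismatch repair, Msh6 (-0.16 to -0.05) and Pms2 (-0.03 to 0.06) were not called. Of 3 other genes of the route, Exo1, a nuclease also used in end resection, was higher in all 4 exposures, at 0.58 (adjusted p = 0.000472) in NM 401 high, 0.51 (adjusted p = 0.00496) in NM 401 low, 0.59 (adjusted p = 0.000885) in Mitsui XNRi-7 high and 0.60 (adjusted p = 0.000877) in Mitsui XNRi-7 low. Pms1 was lower in NM 401 high (-0.33, adjusted p = 0.0296). Of 10 other base excision genes, 2 were higher and 1 lower in NM 401 high, 2 and 0 in NM 401 low, 2 and 0 in Mitsui XNRi-7 high, and 1 and 0 in Mitsui XNRi-7 low. In either direction these were 30%, 20%, 20% and 10%, against 34.8%, 16.9%, 23.7% and 21% of all features. Mpg, a glycosylase for alkylated purines, was higher in all 4 exposures, at 0.31 (adjusted p = 0.000537) in NM 401 high, 0.35 (adjusted p = 0.000726) in NM 401 low, 0.46 (adjusted p = 2.3e-05) in Mitsui XNRi-7 high and 0.30 (adjusted p = 0.00163) in Mitsui XNRi-7 low. Over all 93 other repair genes, 29 were called in NM 401 high, 14 in NM 401 low, 19 in Mitsui XNRi-7 high and 11 in Mitsui XNRi-7 low. These were 31.2%, 15.1%, 20.4% and 11.8%, each below the share called among all features (34.8%, 16.9%, 23.7% and 21%).

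The dose step was seen in few members. For NM 401 high over NM 401 low, 3 of 48 were called (6.25%), against 3.84% of all features. Parp1 was higher at the high dose (0.31 ± 0.08, adjusted p = 0.0389), and Rad50 on the probe used (-0.30 ± 0.08, adjusted p = 0.0376) and Fancb (-0.34 ± 0.08, adjusted p = 0.0253) were lower. With array column as a block, 0 members and 0 of all features were called in this comparison, where the change was 0.35 for Parp1, -0.31 for Rad50 and -0.33 for Fancb, and 5 of 5 NM 401 high arrays and 1 of 5 NM 401 low arrays lie in the first pair of columns. Without NM 401 low animal 1 or 4 or NM 401 high animal 3 or 5, 0 members were called, without NM 401 low animal 3 it was 1, and without NM 401 high animal 2 it was 4. Of all features, 0.967%, 0.797%, 1.31%, 0.911%, 3.59% and 5.37% were called in these fits, in the order named. For Mitsui XNRi-7 high over low, 0 of 48 were called, against 0% of all features. An unadjusted p under 0.05 was found for 4 of the 48, beside 1243 of 22950 features. Rad23b (0.30, adjusted p = 0.0145), Polk (0.47, adjusted p = 0.0141) and Ube2a (0.29, adjusted p = 0.0473) were the called genes among the other 93 for NM 401 high over low.

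Between materials no member was called. NM 401 low over Mitsui XNRi-7 low gave 0 calls, against 0% of all features. It had 5 members at an unadjusted p under 0.05, beside 1287 of 22950 features. NM 401 high over Mitsui XNRi-7 high gave 0 calls by limma, against 0.793% of all features. It had 8 members at an unadjusted p under 0.05, beside 3954 of 22950 features. There was 1 call in the authors' deposited values, beside 1.14% of all features. With slide or replicate number as a block the count was also 1, beside 2.26% and 1.06%. Without NM 401 high animal 2 it was 1, beside 3.98%. The test of whether the dose step differed between materials gave 0 calls, against 0.0305% of all features. It had 6 members at an unadjusted p under 0.05, beside 2923 of 22950 features. Without Mitsui XNRi-7 high animal 5 it gave 1 call, beside 0.858% of all features. Changes between the high doses ran from -0.39 to 0.33 over the 48 genes, and a p above the threshold does not show that the materials act alike.

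Lists of other genes moved beside the repair genes. Of 37 S-phase and mitotic genes, 28 were called higher in NM 401 high, 18 in NM 401 low, 22 in Mitsui XNRi-7 high and 26 in Mitsui XNRi-7 low, and 0 lower in any. These were 75.7%, 48.6%, 59.5% and 70.3% of the list, against 18.4%, 8.95%, 12.7% and 10.6% of all features called higher. The median changes of the list were 0.45, 0.28, 0.31 and 0.43 in that order. The mean ratio of this list ran from -2.75 to -2.47 over NM 401 high animals, -2.91 to -2.59 over NM 401 low, -2.88 to -2.58 over Mitsui XNRi-7 high, -2.71 to -2.52 over Mitsui XNRi-7 low and -3.22 to -2.95 over controls, without overlap with any exposed group. Uhrf1 (0.88, adjusted p = 3.1e-07), Ccne1 (0.61, adjusted p = 1.89e-06), Tk1 (0.45, adjusted p = 6.89e-06) and Gins2 (0.61, adjusted p = 1.18e-05) led in NM 401 high, and Aurkb was above background in no animal. Fen1 and Lig1 act in replication as well as repair, and the part of proliferating cells in their change was not tested.

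Cell type markers moved too. Of 13 macrophage and monocyte markers, 7 were called higher and 1 lower in NM 401 high, 6 and 0 in NM 401 low, 4 and 1 in Mitsui XNRi-7 high, and 5 and 1 in Mitsui XNRi-7 low. The mean of that list ran from 2.97 to 3.38 in NM 401 high, 2.78 to 3.12 in NM 401 low, 2.85 to 3.16 in Mitsui XNRi-7 high and 3.00 to 3.13 in Mitsui XNRi-7 low animals, and from 2.32 to 2.52 in controls. Alveolar type 2 markers were higher (5, 4, 5 and 7 of 9 called, 0 lower), with means from 5.23 to 5.63 in exposed animals and 4.93 to 5.20 in controls. Of 8 alveolar type 1 markers, 6, 4, 5 and 5 were called lower and 1 higher in NM 401 high alone, and of 9 endothelial markers 5, 3, 3 and 2 were called lower, 0 higher. These counts follow the order NM 401 high, NM 401 low, Mitsui XNRi-7 high, Mitsui XNRi-7 low. Of all features, 18.4%, 8.95%, 12.7% and 10.6% were called higher and 16.4%, 8%, 11% and 10.4% lower in that order. Alveolar type 1 means ran from 3.96 to 4.43 in exposed animals and 4.43 to 4.83 in controls, and endothelial means from 3.11 to 4.07 in exposed animals and 4.02 to 4.31 in controls. The part of these cell types in the repair gene changes was not tested.

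**Figure D5:**
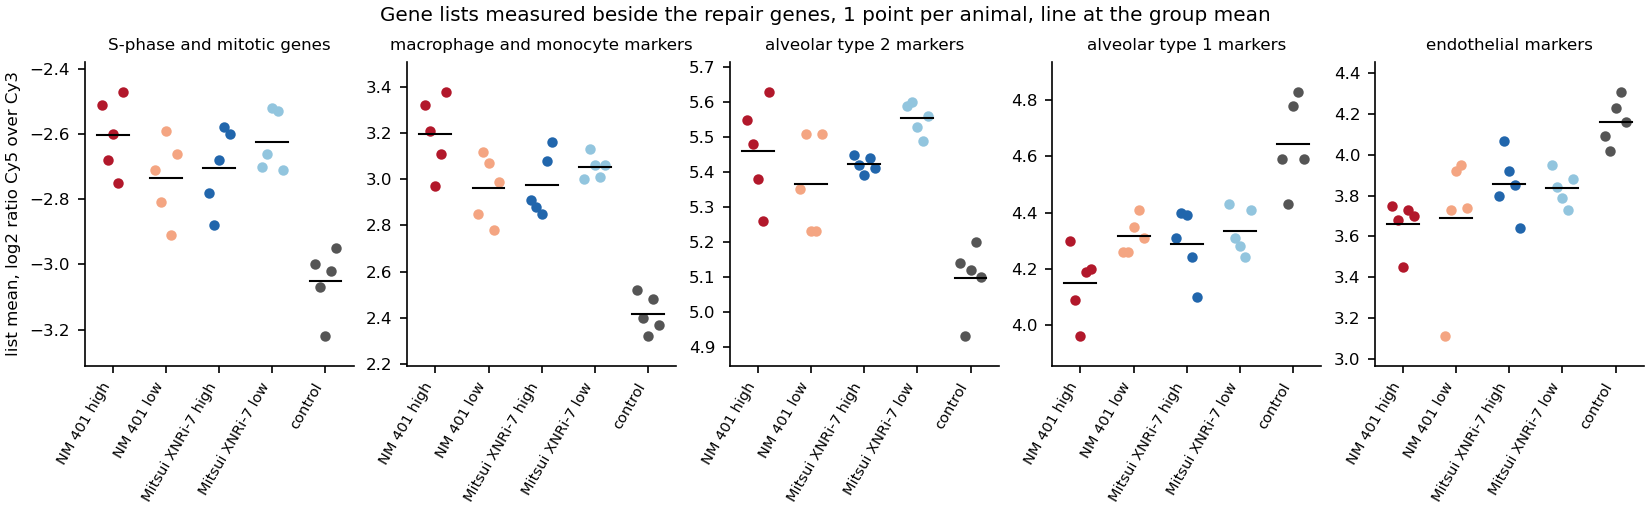
Mean log2 ratio of 5 gene lists in each animal, with 1 point per animal and a line at the group mean, ordered from the NM 401 groups on the left to control on the right. S-phase and mitotic genes, macrophage markers and alveolar type 2 markers lie higher in exposed than in control animals, and alveolar type 1 and endothelial markers lie lower, apart from 1 Mitsui XNRi-7 high animal within the control range for endothelial markers.

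The remaining marker lists moved in mixed ways. The counts below follow the order NM 401 high, NM 401 low, Mitsui XNRi-7 high, Mitsui XNRi-7 low. In that order 18.4%, 8.95%, 12.7% and 10.6% of all features were called higher and 16.4%, 8%, 11% and 10.4% lower. Of 10 fibroblast and smooth muscle markers, 3, 1, 3 and 1 were called higher and 5, 4, 3 and 4 lower. Of 14 T and NK cell markers, 2, 0, 0 and 0 were called higher and 1, 0, 0 and 1 lower. Of 11 B and plasma cell markers 4, 1, 2 and 1 were called higher, and of 7 neutrophil markers 2, 1, 2 and 2, with 0 lower in either list. Of 7 club and ciliated cell markers, 0, 0, 4 and 2 were called higher and 1, 0, 0 and 0 lower. Of 5 mesothelial markers, 3, 0, 2 and 0 were called lower and 0 higher. In each of these 6 lists the mean ratios of exposed and control animals overlapped in at least 1 exposure.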

How the data were processed

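The 26 arrays of 25 animals were 2-colour Agilent arrays on 4 slides, and per the labels' protocols Cy5 held lung RNA and Cy3 a universal mouse reference RNA, with no dye swap. Per the file headers, Agilent Feature Extraction 11.0.1.1 wrote the deposited median spot intensities, their background intensities, and the log10 ratios of red over green after its own background subtraction and dye normalization. Log2 ratios in the authors' deposited series matrix were an alternative, their normalization not given in the sources used here. Flags for signals above background and for outlier spots come from the same scanner files.

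Median intensities were corrected with normexp (offset 50) and loess within each array in limma 3.58.1 under R 4.3.3. Outlier spots (0.461%) were left out, spots of 1 probe averaged, and the 2 arrays of 1 repeated Mitsui XNRi-7 low animal averaged. Of 55681 probes, 30466 had a lung signal above background in 4 or more animals of a group. Symbols came from RefSeq accessions (GRCm38.p6), which left 28446 probes unnamed. Each gene took its brightest kept probe, giving 22950 features, 14838 with a symbol. One limma model with a mean per group (20 residual and 3.76 prior degrees of freedom) gave log2 changes, standard errors and p-values, adjusted by Benjamini-Hochberg over all features and called under 0.05. The arrays give no read depth, and the 5 animals a group limit the precision.

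The members and lists were chosen with earlier results of these data known. Per-animal values are given for the members that the rule for named genes picked, and other called members by their change. Replicate numbers did not pair animals: 12 of 50 same-number pairs correlated above 0.1, against 53 of 200 pairs with other numbers. The method was tested on simulated data. The closing section gives the alternatives.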

Additional observations from a re-analysis of the deposited data

Results flagged for a closer look

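In 4 of 70 groups of 5 animals tested, 1 animal lay far from the others, and chance gives about 1 in 20. Xrcc3 was -2.17 in Mitsui XNRi-7 high animal 1, with the others between -1.98 and -1.94. The remaining 3 were all control animal 2: Ddb1 at -0.21 (others -0.41 to -0.35), Ddb2 at -0.91 (others -0.66 to -0.61) and Fanca at -2.54 (others -2.04 to -1.93).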

How the results depend on the processing

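Centring each array on its median in place of loess called 0 members in each of the 4 exposures and for NM 401 high over NM 401 low. Of all features it called 4.64%, 0.270%, 0.527% and 0.322% in NM 401 high, NM 401 low, Mitsui XNRi-7 high and Mitsui XNRi-7 low. For NM 401 high over NM 401 low it called 0.0349% of them. It moved the median of all features to 0.17 in NM 401 high, -0.11 in NM 401 low, -0.13 in Mitsui XNRi-7 high and -0.14 in Mitsui XNRi-7 low, and turned Lig1 to -0.02 in both Mitsui XNRi-7 groups and Ddb1 to 0.16 in NM 401 high, while 34 of the 37 called changes kept their direction. Array column as a block, chosen after seeing the data, called 3 members in NM 401 low and 0 for NM 401 high over NM 401 low, where no filter on dim probes called 1. These counts stood beside 13.9%, 0% and 1.78% of all features. Of the 37 called changes, the ratios of the scanner software kept 30 calls, the authors' deposited values 34, no filter on dim probes 34, the mean of all kept probes 35, no background correction 36 and an intensity trend in the variance 36, all in the same direction, and slide as a block and the first array alone of the repeated animal kept 37. NM 401 high over Mitsui XNRi-7 high had 1 call in the authors' values, with slide as a block, and with the replicate number as a block. Of all features these settings called 1.14%, 2.26% and 1.06%. No other count moved by over 1.5 times under the replicate block, which kept 35 of the 37 called changes. Leaving out 1 animal gave 11 to 15 members in NM 401 high, 2 to 6 in NM 401 low, 7 to 10 in Mitsui XNRi-7 high, 8 to 10 in Mitsui XNRi-7 low, 0 to 4 for NM 401 high over NM 401 low, 0 to 1 for NM 401 high over Mitsui XNRi-7 high and 0 to 1 for the interaction. The count for NM 401 low was 3 without NM 401 low animal 1 or 5 or control animal 3 or 5, and 2 without NM 401 low animal 2. Of all features, 15.5%, 13.6%, 15.0%, 14.4% and 12.7% were called there, in the order named. Over all fits without 1 animal, 323 of 370 called changes held. The cause of these differences was not tested. An intended fit on mean spot signals was not run, because the tables used here give median signals. Signals near background limit Neil3, Ogg1 and Chek2.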
